A study of Homo sapiens with 6 samples.

Results

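The splicing factors described here were 82 coding genes of the SR, hnRNP and snRNP families, out of 60480 gene identifiers counted in OE-19 cells, a line from an adenocarcinoma of the esophagogastric junction (AEG). They were taken by symbol alone among genes that the deposited table types as coding: 12 SR proteins (SRSF), 26 hnRNP proteins (HNRNP), 12 proteins of the Sm ring or of the U1 and U2 particles (SNRP), 8 LSm proteins (LSM1 to LSM8), 9 subunits of SF3A and SF3B, both subunits of U2AF and 13 proteins named PRPF. Poly(A) RNA was sequenced from 3 libraries of control cells (control) and 3 libraries of cells with an shRNA against *IGF2BP3* (IGF2BP3 KD), all grown in RPMI1640 medium with serum and antibiotics. The control libraries are titled shControl and their counts are labelled Puro, and which control construct the cells carried is not stated. The study's text does not say whether the 3 IGF2BP3 KD libraries carried the same shRNA, and nothing says that libraries of a group came from separate cultures, so the p-values measure the spread between these libraries, which may be technical. The comparison asks how the mRNAs of the splicing machinery differed once *IGF2BP3* was lowered.

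Introns are removed from pre-mRNA by the spliceosome, which is built anew on each intron from small nuclear ribonucleoprotein particles (snRNPs), each a small nuclear RNA with a ring of Sm or LSm proteins and its own proteins. SR proteins bind exons and mostly promote the use of nearby splice sites, hnRNP proteins coat the transcript and often repress them, and U2AF, SF3A and SF3B mark the end of the intron and its branch point. IGF2BP3 is an RNA-binding protein that reads N6-methyladenosine (m6A) on mRNA and is known for stabilizing its targets.

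*IGF2BP3* itself was at 108, 106 and 112 CPM (gene counts scaled to a common library size with TMM factors) in the control libraries and at 14.4, 12.8 and 12.6 CPM in the IGF2BP3 KD libraries, a log2 fold change of −3.03. Total counts ran from 53424071 to 69989087 per library. Epithelial markers summed to 6280 to 6495 CPM in all 6 libraries, with *EPCAM* called higher (log2 fold change 0.15) and *ELF3* (−0.27), *KRT8* (−0.06) and *KRT18* (−0.07) lower. *ERBB2* had a mean of 13074 CPM in control and 14337 CPM in IGF2BP3 KD libraries (0.13, called higher). Of the gastrointestinal markers, *VIL1*, *HNF4A*, *GATA6*, *TFF3* and *CDX2* had control means of 12.6 to 364 CPM, with *CDX2* (0.50) and *TFF3* (0.31) called higher, and *KRT20* was near 0. *PTPRC*, *CD3E*, *COL1A2* and the endothelial markers were at or near 0. The 4 leukocyte markers summed to 32.9 to 37.7 CPM in control and 48.8 to 54.2 CPM in IGF2BP3 KD libraries, nearly all of it *CD68*, and the 4 fibroblast markers to 21.2 to 24.5 CPM and 29.7 to 34.4 CPM, nearly all of it *COL1A1*. Both genes were called higher, and their part in the results below was not tested.

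In IGF2BP3 KD cells, mRNAs of hnRNP and SR proteins were often lower, as were those of several SF3, U2AF and PRPF proteins, and 2 genes in all were higher. Genes that fell or rose did so in mRNA, and protein levels were not measured in these libraries. Of the 82 genes, 76 had enough counts to be tested, and 37 of these fell, 2 rose and 37 did not pass the test (edgeR's quasi-likelihood test, Benjamini-Hochberg adjusted p under 0.05 over 19778 genes). Over all genes tested, 10.6% were called lower and 9.87% higher. Since well expressed genes are called more often, coding genes whose mean reached 10 CPM are the closer background, and of those 19.7% were called lower and 16.6% higher, against 48.7% and 2.63% of the tested splicing factors. Control means of the tested splicing factors ran from 1.24 to 1037 CPM. This background is not matched to their levels, and the part of level in the gap was not tested. Among tested splicing factors the median log2 fold change was −0.13, with 65 of 76 below 0. The median was 0.01 over all genes, with 48.6% below 0, and −0.01 over coding genes of at least 10 CPM, with 52.9% below 0. At an unadjusted p under 0.05, 49 splicing factors were lower and 4 higher (*SRSF8*, *LSM1*, *HNRNPLL* and *HNRNPH2*). No gene of the hnRNP, SNRP, SF3, U2AF or PRPF families was called higher by edgeR or by DESeq2, which called 44 of the splicing factors lower and 2 higher.

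The falls were small but separated the groups. In 46 of the 76 genes every IGF2BP3 KD library lay below every control library, and in 4 genes every one lay above; over all genes tested, these orders held for 17.8% and 18% of genes, and over coding genes of at least 10 CPM for 28.3% and 24.6%. The 82 genes together took 1.41% to 1.44% of all counts in the control libraries and 1.29% to 1.30% in the IGF2BP3 KD libraries. The median ratio of the tested genes other than *HNRNPA1L2* to their control mean, on the log2 scale, was 0.02, −0.004 and −0.01 in the 3 control libraries. It was −0.12, −0.14 and −0.11 in the 3 IGF2BP3 KD libraries, so each IGF2BP3 KD library lay below each control library. Of the 37 genes that fell, 6 had a log2 fold change of −0.3 or below (*HNRNPR*, *HNRNPUL2*, *HNRNPA1L2*, *LSM5*, *SNRPA1* and *SNRPE*), and the other 31 lay between −0.28 and −0.11. In bulk RNA, fewer cells with a transcript and less of it per cell cannot be told apart. With 3 libraries against 3, the smallest p open to an exact two-sided permutation test is 0.1, so the calls rest on the spread that edgeR shares across genes.

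**Figure D1:**
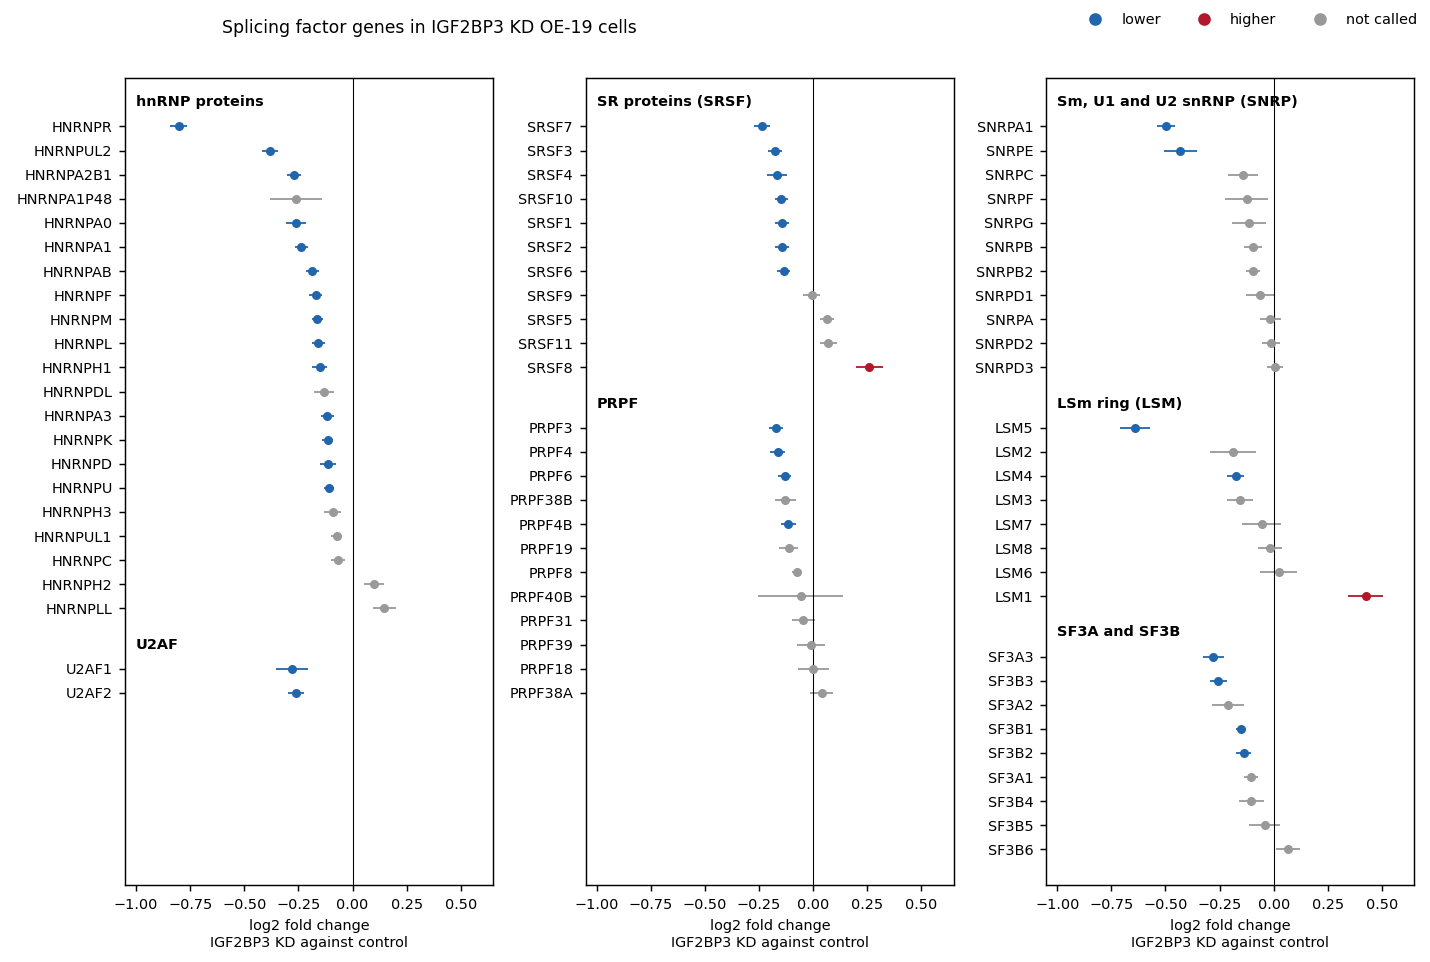
Log2 fold change of IGF2BP3 KD against control (x axis) for 74 of the 76 tested splicing factor genes (y axis, by family and sorted), with bars of 1 standard error; blue genes were called lower, red ones higher and grey ones not called. *HNRNPA1L2*, at −3.78, lies off the scale and is left out with 1 other gene, and most points lie left of 0, with *HNRNPR*, *LSM5* and *SNRPA1* the farthest and *LSM1* and *SRSF8* on the right.

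Of the 22 tested hnRNP genes, 15 fell (68.2%, against the 19.7% of coding genes of at least 10 CPM), with none higher and a median log2 fold change of −0.15. *HNRNPR*, which codes for hnRNP R, a protein with several RNA-binding domains that is closely related to SYNCRIP, had the most marked fall of the well expressed members. It was at 244, 229 and 226 CPM in the control libraries and at 132, 139 and 129 CPM in the IGF2BP3 KD libraries, so that its highest KD value was far below its lowest control value. The log2 fold change was −0.80 (SE 0.04; adjusted p = 3.34e-07 by edgeR's quasi-likelihood test) and the level fell by 42.7%. *HNRNPR* lies on the minus strand at chr1:23303771-23344336 (hg38), and no exon of another gene overlaps its exons in GENCODE v44.

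*HNRNPUL2*, of the hnRNP U-like group, read 211, 205 and 222 CPM in control and 166, 157 and 166 CPM in IGF2BP3 KD libraries, with no overlap and a log2 fold change of −0.38 (SE 0.04). Since 44.3% of its exon bases are shared on the same strand with the readthrough gene *HNRNPUL2-BSCL2*, its count can depend on how reads in both were assigned. The mRNAs of the abundant pair of hnRNP A/B proteins, known for binding exonic and intronic silencers, fell by smaller amounts. *HNRNPA2B1* went from 895, 829 and 832 CPM to 717, 689.7 and 711 CPM (log2 fold change −0.27, SE 0.03). *HNRNPA1* went from 1084, 1008 and 1019.6 CPM to 882, 865 and 896 CPM (log2 fold change −0.24, SE 0.03). For both, all 3 IGF2BP3 KD libraries lay below all 3 control libraries.

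Another 10 hnRNP genes fell by 0.11 to 0.26 on the log2 scale without overlap of the groups. They were *HNRNPA0* (−0.26), *HNRNPAB* (−0.19), *HNRNPF* (−0.17), which binds runs of G, *HNRNPM* (−0.16), *HNRNPL* (−0.16), which binds CA repeats, *HNRNPH1* (−0.15), *HNRNPA3* (−0.12), *HNRNPK* (−0.11), which binds C-rich RNA, *HNRNPD* (−0.11), known as AUF1 for its binding to AU-rich elements, and *HNRNPU* (−0.11), the scaffold attachment factor. Of these 10 calls, those of *HNRNPD* and *HNRNPA3* had the largest adjusted p, 0.0444 and 0.0194 (edgeR). *HNRNPD* lost its call in 5 of the 6 fits that left out 1 library, all but that without control replicate 3, and also without the low-count filter (adjusted p = 0.0911, edgeR). Its log2 fold change was −0.07 without control replicate 1. *HNRNPA3* lost its call without IGF2BP3 KD replicate 2 or 3.

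*HNRNPA1L2*, an intronless relative of *HNRNPA1*, was called with a log2 fold change of −3.78 (SE 0.84), but rested on few reads: 129, 11 and 99 counts in the control libraries and 2, 10 and 4 in the IGF2BP3 KD libraries. Control replicate 2 is at the level of IGF2BP3 KD replicate 2, so the groups overlap. All of its exon bases lie inside the exons of another gene of the same strand, so which gene gave these reads cannot be told apart. Of the hnRNP genes that did not pass the test, *HNRNPDL* (−0.13), *HNRNPH3* (−0.09), *HNRNPUL1* (−0.07), *HNRNPC* (−0.07), the U-tract binder, and *HNRNPA1P48* (−0.26) had values below 0, while *HNRNPH2* (0.10) and *HNRNPLL* (0.15), a regulator of CD45 splicing in lymphocytes, had values above 0. *HNRNPA1P48* carries a pseudogene symbol although the table types it as coding, and GENCODE v44 names it *HNRNPA1L3*. *HNRNPCL1*, *HNRNPCL2*, *HNRNPCL3* and *HNRNPCL4*, close relatives of *HNRNPC*, had 0 to 12 counts in a library and were not tested.

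**Figure D2:**
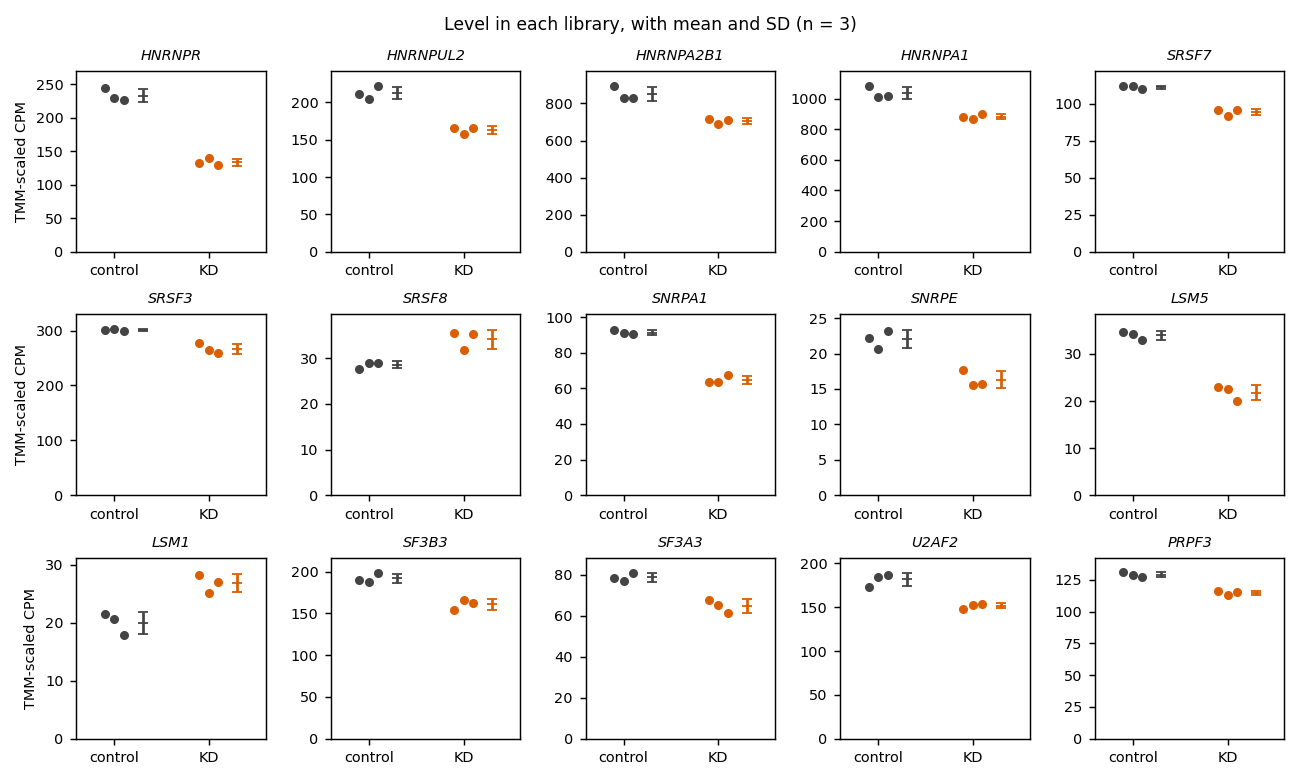
TMM-scaled CPM (y axis, from 0) of 15 splicing factor genes in each control library (grey points) and each IGF2BP3 KD library (orange points), with the mean and SD of 3 libraries beside the points. In every panel the groups do not overlap; 13 genes are lower in IGF2BP3 KD, and *SRSF8* and *LSM1* are higher.

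Among the SR proteins, 7 of 11 tested genes fell (63.6%) and 1 rose, with a median log2 fold change of −0.14. *SRSF7*, a shuttling SR protein with a zinc knuckle, was at 112, 112 and 110.1 CPM in control and 95.6, 92.0 and 95.8 CPM in IGF2BP3 KD libraries (log2 fold change −0.24, SE 0.04). *SRSF3*, the smallest SR protein, went from 301, 303 and 299 CPM to 277, 264 and 259 CPM (log2 fold change −0.18, SE 0.03). Neither gene had a KD library within the control range.

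*SRSF6* read 272, 265 and 258 CPM in control and 239, 239 and 245 CPM in IGF2BP3 KD libraries (log2 fold change −0.14, SE 0.03). *SRSF10*, which represses splicing when it loses its phosphates, read 228, 214 and 217 CPM and 200.5, 199 and 197 CPM (log2 fold change −0.15, SE 0.03). The genes of the founding SR proteins, *SRSF1* (SF2/ASF, −0.14) and *SRSF2* (SC35, −0.14), and of the larger *SRSF4* (−0.17) fell by like amounts, all without overlap. *SRSF4* kept its call in 2 of the 6 fits without 1 library (those without control replicate 1 or IGF2BP3 KD replicate 1), and *SRSF1* lost it without IGF2BP3 KD replicate 2, at an adjusted p of 0.051 (edgeR).

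*SRSF8*, a close relative of *SRSF2*, went the other way. Its level was 27.7, 29.0 and 29.0 CPM in control and 35.4, 31.7 and 35.3 CPM in IGF2BP3 KD libraries, with all KD values above all control values and a log2 fold change of 0.26 (SE 0.06; adjusted p = 0.0128, edgeR). Its values are given because they were seen to differ in sign from the family, and the call was lost without IGF2BP3 KD replicate 1 or 3, with the log2 fold change at 0.23 in both fits. *SRSF5* (0.06), *SRSF11* (0.07) and *SRSF9* (−0.01) did not pass the test, and *SRSF12*, with 0 to 14 counts in a library, was not tested. A log2 fold change in parentheses for a gene that did not pass is its value only, and does not show that its level was the same in both groups.

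Of the 11 tested SNRP genes, whose proteins lie on the snRNPs themselves, 2 fell (18.2%), a share near the 19.7% of coding genes of at least 10 CPM, with a median of −0.10. *SNRPA1* codes for the A′ protein of the U2 particle, which binds U2 RNA together with the product of *SNRPB2*. Its level was 92.6, 91.1 and 90.3 CPM in the control libraries and 63.3, 63.3 and 67.3 CPM in the IGF2BP3 KD libraries, without overlap, a log2 fold change of −0.50 (SE 0.04; adjusted p = 1.27e-05, edgeR). Its partner *SNRPB2* read 223, 209.6 and 217 CPM and 198, 202 and 208 CPM, a log2 fold change of −0.10 that did not pass the test although its groups did not overlap either.

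Of the genes of the 7 Sm proteins that form the ring, *SNRPE* alone fell. Its level was 22.2, 20.7 and 23.2 CPM in control and 17.7, 15.6 and 15.7 CPM in IGF2BP3 KD libraries (log2 fold change −0.43, SE 0.08). The other Sm genes were *SNRPF* (−0.13), *SNRPG* (−0.11), *SNRPB* (−0.10), *SNRPD1* (−0.06), *SNRPD2* (−0.01) and *SNRPD3* (0.01), and whether *SNRPE* differed from them was not tested. The U1 proteins *SNRPA* (−0.01) and *SNRPC* (−0.14) did not pass the test. *SNRPN*, an SmB relative from an imprinted locus, is listed at 0 in all 6 libraries, as is *SNURF*, with which it shares a transcript.

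The LSm proteins, which ring the U6 RNA in the nucleus as LSM2 to LSM8 and take part in mRNA decay in the cytoplasm as LSM1 to LSM7, gave 2 lower and 1 higher of 8 genes (25% and 12.5%), shares near those of coding genes of at least 10 CPM (19.7% and 16.6%). *LSM5*, which both rings share, was at 34.7, 34.1 and 33.0 CPM in control and at 23.0, 22.5 and 19.9 CPM in IGF2BP3 KD libraries, without overlap and with a log2 fold change of −0.64 (SE 0.07; adjusted p = 6.29e-05, edgeR). *LSM4*, also of both rings, went from 168, 181 and 178 CPM to 149.8, 154 and 162 CPM (log2 fold change −0.18, SE 0.04). *LSM1*, the subunit of the cytoplasmic ring alone, was higher: 21.4, 20.6 and 17.9 CPM in control and 28.3, 25.2 and 27.0 CPM in IGF2BP3 KD libraries, without overlap, a log2 fold change of 0.43 (SE 0.08; adjusted p = 0.00312, edgeR). *LSM8*, the subunit of the nuclear ring alone, was at 60.7, 56.7 and 56.3 CPM and 60.3, 56.2 and 55.2 CPM with a log2 fold change of −0.02, and its groups overlap.

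*LSM2* (−0.19), *LSM3* (−0.16), *LSM7* (−0.06) and *LSM6* (0.02) did not pass the test. *LSM1* shares 37.9% of its exon bases with genes on the opposite strand, among them *BAG4*. The strand setting used for counting is not stated, so reads from these genes may have entered its count, whereas *LSM5* and *SNRPE* share no exon base with another gene and *SNRPA1* shares 24. Other genes that fell share exon bases too, on either strand. Among them are *HNRNPA3* (54.8%), *SRSF1* (35.1%), *SRSF2* (27.7%), *HNRNPU* (19.0%) and *HNRNPA2B1* (12.5%), whose counts may also hold reads of other genes.

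The genes of both subunits of U2AF, which marks the 3′ end of the intron, were called lower. *U2AF2*, the large subunit that binds the polypyrimidine tract, was at 173, 185 and 187 CPM in control and 148, 153 and 154 CPM in IGF2BP3 KD libraries (log2 fold change −0.26, SE 0.04). *U2AF1*, the small subunit that contacts the AG at the intron's end, went from 49.3, 40.7 and 46.3 CPM to 35.3, 38.4 and 38.4 CPM (log2 fold change −0.28, SE 0.07). Both were without overlap, but the call of *U2AF1* was lost without control replicate 1 or 3 or IGF2BP3 KD replicate 1.

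The count of *U2AF1* is also shared with a near-identical gene. Of the 796 windows of 150 bases in its transcript, 784 (98.5%) occur unchanged in *U2AF1L5*, whose own level was 34.3, 40.9 and 37.9 CPM in control and 35.3, 29.5 and 30.1 CPM in IGF2BP3 KD libraries (log2 fold change −0.25, adjusted p = 0.0585, edgeR, not called). The split of reads between them is therefore uncertain. Their summed level was 83.5, 81.5 and 84.2 CPM in the control libraries and 70.6, 68.0 and 68.5 CPM in the IGF2BP3 KD libraries, without overlap and with less spread than either gene alone.

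Of the 9 genes of SF3A and SF3B subunits, 4 fell (44.4%), with none higher and a median of −0.14. *SF3B3* read 189.8, 187 and 198 CPM in control and 154, 166 and 162 CPM in IGF2BP3 KD libraries (log2 fold change −0.26, SE 0.04). *SF3A3* read 78.5, 76.8 and 80.8 CPM and 67.8, 65.5 and 61.2 CPM (log2 fold change −0.28, SE 0.05). *SF3B1*, which holds the branch point helix and is mutated in several cancers, read 401, 399.8 and 403 CPM and 369, 359 and 357 CPM (log2 fold change −0.15, SE 0.02). All 3 genes were without overlap.

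*SF3B2* read 189, 188 and 184 CPM in control and 168, 165 and 177 CPM in IGF2BP3 KD libraries (log2 fold change −0.14, SE 0.03), also without overlap, but its call was lost without control replicate 2 or IGF2BP3 KD replicate 1 or 2. Of the rest, *SF3A2* (−0.21) and *SF3A1* (−0.10) had no overlap between groups and *SF3B4* (−0.10), *SF3B5* (−0.04) and *SF3B6* (0.07) overlapped. The family's count of calls depended on single libraries, from 3 without control replicate 2 or IGF2BP3 KD replicate 1 to 7 without control replicate 1.

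Among the PRPF genes, 5 of 13 fell (38.5%) and none rose, with a median of −0.11. *PRPF3* and *PRPF4*, partners on the U4/U6 particle, both fell, *PRPF3* from 131, 129 and 127 CPM to 116, 113 and 115 CPM (log2 fold change −0.17, SE 0.03) and *PRPF4* from 103, 106 and 107 CPM to 94.0, 92.8 and 95.3 CPM (log2 fold change −0.16, SE 0.04). *PRPF6*, which bridges U5 and U4/U6, went from 237, 232 and 223 CPM to 207, 209 and 215 CPM (log2 fold change −0.13, SE 0.03). None of these 3 genes had a KD library within the control range.

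*PRPF4B*, a kinase of the spliceosome, was called at −0.11 but lost its call whichever library was left out and also without the low-count filter, and *PRPF6* lost it without IGF2BP3 KD replicate 1 or 2. *PRPF8* (−0.07), the scaffold of the catalytic core, *PRPF19* (−0.11), a ubiquitin ligase, and *PRPF38B* (−0.13) did not pass the test but had no overlap between groups. For *PRPF31* (−0.04), *PRPF39* (−0.01), *PRPF18* (0.001), *PRPF40B* (−0.06) and *PRPF38A* (0.04) the groups overlapped.

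**Figure D3:**
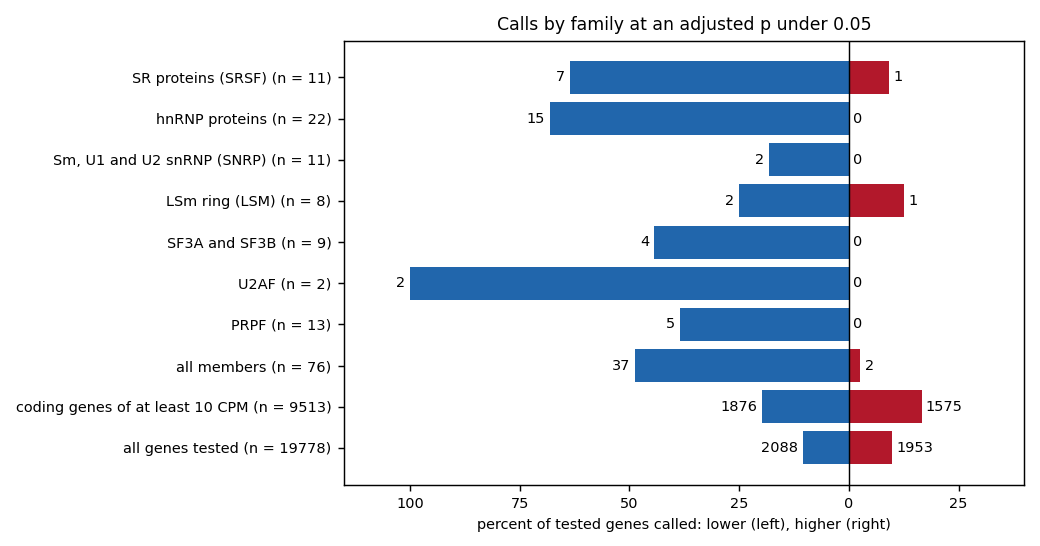
Percent of tested genes called lower (blue, to the left) and higher (red, to the right) in IGF2BP3 KD at an adjusted p under 0.05 (x axis), for each family, for all tested splicing factors and for 2 backgrounds (y axis, with the number tested), with the number of genes called beside each bar. The hnRNP and SR proteins had 15 of 22 and 7 of 11 genes lower, against 1876 of 9513 coding genes of at least 10 CPM.

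The levels of the genes, per kilobase of merged exons, spanned a wide range, and genes of hnRNP proteins stood at the top. The 5 highest control means were those of *HNRNPA1* (155 CPM per kb), *HNRNPK* (133 CPM per kb), *HNRNPF* (124 CPM per kb), *HNRNPAB* (101 CPM per kb) and *HNRNPUL1* (85.2 CPM per kb). Merged exons include rare long isoforms and so can understate a gene's level, as for *U2AF1* with 11.1 kb of merged exons beside a transcript of 945 bases. The family medians were 41.4 CPM per kb for the hnRNP proteins, 27.5 for the SR proteins, 26.1 for SNRP, 20.2 for SF3A and SF3B, 17.6 for PRPF and 10.5 for LSM.

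The libraries of the most abundant members show how narrow the spread was. *HNRNPK* was at 773, 753 and 743 CPM in control and 684, 706 and 706 CPM in IGF2BP3 KD libraries. *HNRNPF* was at 396, 420.4 and 400.2 CPM and 363, 358 and 359.7 CPM. For *HNRNPAB* the values were 219, 212 and 213 CPM and 185, 192 and 189 CPM. They fell by 7.62% to 12.1%, and the groups did not overlap. *HNRNPUL1*, at 550.2, 586 and 574 CPM and 539, 542 and 543 CPM, was also apart but did not pass the test.

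Shared reads touched a part of the list. Among the 41 tested genes whose exons overlap no other gene, 19 fell and 1 rose (median −0.14), and among the 35 with an overlap 18 fell and 1 rose (median −0.11). Of *HNRNPA1*'s windows of 150 bases, 20.9% occur in transcripts named as its pseudogenes, with *HNRNPA1P48* counted among these. Their rows held 3.74% of the summed counts, and for *HNRNPA3* 7.55% of windows and 2.14% of counts were shared. *SNRPG* had no shared window, although rows of its pseudogenes held 7.93% of the summed counts. Adding the rows of pseudogenes, of *HNRNPA1P48* and of *U2AF1L5* to their parent genes left 37 genes lower and 2 higher. The added rows also stayed in that fit as rows of their own. The counts are per gene, so isoforms of a splicing factor, among them those with the poison exons known in SR genes, are not separated.

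The 3′ UTRs of the members were searched for GATTACT and ACACATC, words that an earlier look at these same libraries had picked because genes holding them were lower or higher in IGF2BP3 KD cells, so the match is a description and no independent evidence. GATTACT lay in 8 of the 76 tested splicing factors (10.5%), against 7.70% of 13914 tested coding genes with a 3′ UTR. The sites of 7 of them are shown because *HNRNPR* is among them; each is a window of 30 bases of the mRNA strand, 5′ to 3′, with the word in capitals.
HNRNPR: tttcaatttaaGATTACTatttactgatga
SRSF7: aaatggatctgGATTACTatgtaaattcac
SRSF10: tccttttagagGATTACTtttttcaatttc
HNRNPF: tgactggcacaGATTACTcagcaaaagata
HNRNPA0: tctccttaattGATTACTttttagaaatca
HNRNPDL: tttgaattgctGATTACTttggctttaatc
PRPF38B: atgtgtcatttGATTACTttgttccatgtc
The first 5 of these genes fell, and *HNRNPDL*, *PRPF38B* and *LSM3*, the eighth gene with the word, with log2 fold changes of −0.13, −0.13 and −0.16, did not pass the test. Over all tested coding genes that hold GATTACT, 376 of 1072 were called lower and 72 higher. Of the 11722 with neither this word nor ACACATC, 1531 were called lower and 1399 higher. The length of the 3′ UTR, with a median of 1257 bases over tested coding genes, was not taken into account. The windows lie, in this order, at chr1:23308720-23308749, chr2:38744994-38745023, chr1:23969550-23969579, chr10:43385992-43386021, chr5:137748819-137748848, chr4:82424216-82424245 and chr1:108701412-108701441 (hg38), within the 3′ UTR of the canonical GENCODE v44 transcript. The word starts at base 1716 of 5766 in the 3′ UTR of *HNRNPR* and at base 121 of 1534 in that of *SRSF7*.

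ACACATC lay in 4 members (5.26%, against 9.54% of the same coding genes): *LSM1*, which rose, *HNRNPA3*, which fell, and *SNRPD1* and *PRPF38A*, which did not pass the test. Of these, the sites of *HNRNPA3*, which fell, and of *SNRPD1* are shown in the same way. Of the 1327 coding genes that hold the word, 373 were called higher and 142 lower. Of the 11722 with neither word, 1399 were called higher and 1531 lower.
HNRNPA3: ggcttggtgatACACATCtgtagtcccagc
SNRPD1: cagcattttgtACACATCtgatatttaatg
They lie at chr2:177222662-177222691 and chr18:21632770-21632799. The other 64 tested members hold neither word, and of these 31 fell and 1 rose, with a median log2 fold change of −0.12, so most of the calls are in genes without these words. *LSM5*, *SNRPA1*, *SNRPE* and *HNRNPUL2* are among them.

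Promoter sequences (RefSeq, GRCh38.p14, from 250 bases before to 50 after the start) were found for 65 of the 76 tested members and searched on both strands. The CCAAT box (CCAAT) was present in 29 of them (44.6%), against 36.5% of 11028 promoters of tested coding genes, and in 13 of the 31 whose genes fell. The core of the ETS site (CCGGAAG) was in 23 (35.4%, against 18.3%), of which 10 were of genes that fell, and TATAAA in 6 (9.23%, against 6.18%). These background shares were not limited to coding genes of at least 10 CPM, and the part of expression level in them was not tested. The promoters of the 3 well expressed genes with the lowest log2 fold changes are shown 5′ to 3′ on the gene's strand, with the CCAAT box and the ETS core in capitals.
HNRNPR: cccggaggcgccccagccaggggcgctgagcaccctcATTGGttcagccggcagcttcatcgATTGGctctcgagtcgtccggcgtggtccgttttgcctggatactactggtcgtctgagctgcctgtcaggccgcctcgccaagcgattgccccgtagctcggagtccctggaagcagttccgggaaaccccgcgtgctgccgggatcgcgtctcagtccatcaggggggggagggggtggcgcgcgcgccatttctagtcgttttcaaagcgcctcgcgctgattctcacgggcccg
LSM5: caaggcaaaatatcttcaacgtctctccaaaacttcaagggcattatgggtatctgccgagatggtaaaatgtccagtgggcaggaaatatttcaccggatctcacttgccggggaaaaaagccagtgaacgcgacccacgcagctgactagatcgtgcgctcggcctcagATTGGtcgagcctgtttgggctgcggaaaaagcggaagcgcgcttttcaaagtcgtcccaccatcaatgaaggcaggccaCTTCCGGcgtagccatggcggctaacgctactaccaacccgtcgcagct
SNRPA1: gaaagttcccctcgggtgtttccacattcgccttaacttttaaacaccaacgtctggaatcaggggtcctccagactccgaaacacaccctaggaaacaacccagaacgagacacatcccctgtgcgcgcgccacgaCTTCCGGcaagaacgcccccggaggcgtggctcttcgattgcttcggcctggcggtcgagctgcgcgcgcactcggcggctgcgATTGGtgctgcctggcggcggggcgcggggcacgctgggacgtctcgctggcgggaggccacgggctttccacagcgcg
All 3 genes lie on the minus strand, at chr1:23344235-23344534, chr7:32490331-32490630 and chr15:101295199-101295498. Each holds the CCAAT box as ATTGG, that is on the opposite strand, with a second copy in *HNRNPR*, and *LSM5* and *SNRPA1* also hold the ETS core as CTTCCGG. A match says only that these letters are present.

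The rest of the splicing machinery was read from 9 lists of 165 further genes, of which 164 were tested. In these, 57 fell (34.8%, against 10.6% of all genes and 19.7% of coding genes of at least 10 CPM) and 3 rose, with a median of −0.11, and 132 were below 0. Of the 6 lists with none called higher by edgeR, none had a gene called higher by DESeq2 or at an unadjusted p under 0.05. The share of genes called lower varied from list to list, and differences between lists were not tested. Proteins associated with U1 and U2 had 9 of 17 genes lower and none higher (median −0.17), with *HTATSF1* (−0.35), a U2 cofactor, *LUC7L2* (−0.33), a U1 protein, and *DDX39B* (−0.27), the helicase UAP56. The U4/U6.U5 tri-snRNP had 6 of 13 lower and none higher (median −0.17), among them the U5 helicase *SNRNP200* (−0.20), the U5 GTPase *EFTUD2* (−0.21) and *DDX23* (−0.21), the helicase PRP28.

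The Prp19 complex and the catalytic step had 4 of 27 lower (14.8%, under the 19.7% of coding genes of at least 10 CPM) and 1 higher (median −0.10), with *PLRG1* (−0.40) and *SLU7* (−0.20) lower and *SYF2* (0.42) higher. *SYF2* was at 68.7, 67.6 and 67.7 CPM in control and 92.8, 88.6 and 91.4 CPM in IGF2BP3 KD libraries, without overlap. The minor spliceosome, which removes the rare U12-type introns, had none of 12 called by edgeR or by DESeq2, 1 lower at an unadjusted p under 0.05 and a median of −0.01. The SMN complex and snRNP assembly had 2 of 17 lower, *PHAX* (−0.40), the export adaptor of snRNAs, and *WDR77* (−0.27), and 1 higher, *GEMIN2* (0.55), which holds the Sm ring as it forms, with a median of −0.01. Its share of 11.8% lower was also under that background.

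The exon junction complex had 5 of 11 lower (median −0.09), including *PNN* (−0.24), *SAP18* (−0.18) and *CASC3* (−0.24). Its genes *EIF4A3* (−0.09), *RBM8A* (−0.05), *UPF3A* (−0.02), *UPF3B* (−0.003), *MAGOH* (0.003) and *MAGOHB* (0.12) did not pass the test. Of 8 genes of kinases and import factors of SR proteins, *CLK3* (−0.29) and *DYRK1A* (−0.28) fell (25%, median −0.09). That share is near the 19.7% of coding genes of at least 10 CPM. *CLK2* (−0.14), *TNPO3* (−0.10), *CLK4* (−0.08), *SRPK1* (−0.04), *CLK1* (−0.01) and *SRPK2* (0.13) did not pass the test. SR-related proteins had 11 of 20 lower and none higher (median −0.16), with *SREK1* (−0.66), *BCLAF1* (−0.42) and *TRA2B* (−0.24), and *SCAF11*, listed at 0 in all libraries, was not tested. Other splicing regulators had 18 of 39 lower and 1 higher (median −0.15), with *RALY* (−0.51), an hnRNP C relative, *PTBP3* (−0.34), of the polypyrimidine tract binding proteins, and *SYNCRIP* (−0.27), the relative of hnRNP R.

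**Figure D4:**
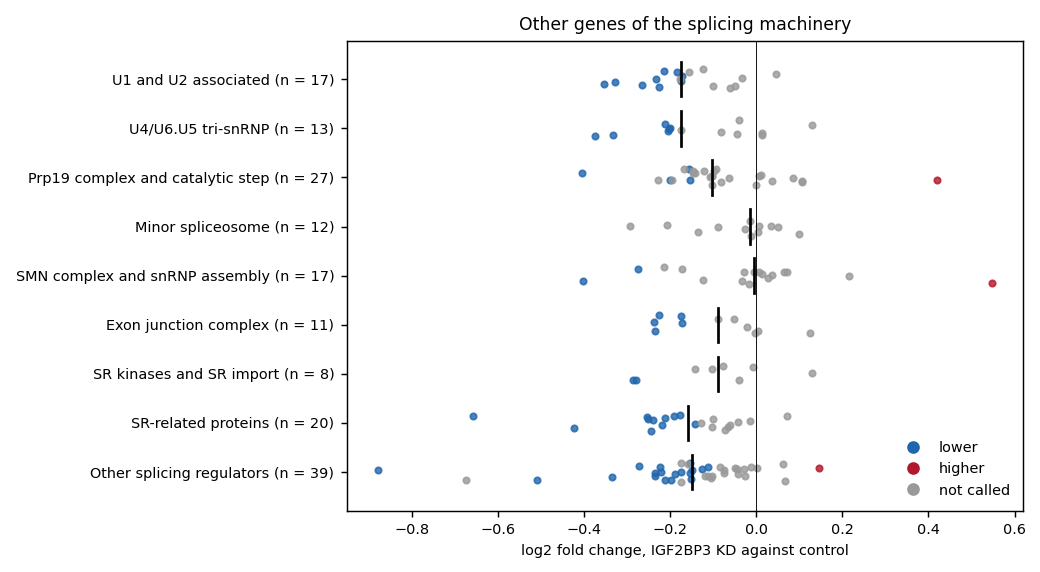
Log2 fold change of IGF2BP3 KD against control (x axis) for each tested gene of 9 further lists of the splicing machinery (y axis, with the number tested), blue where called lower, red where called higher and grey where not called, with a black bar at each list's median (points are spread vertically for sight only). Medians lie between −0.17 for the U1 and U2 associated and tri-snRNP lists and −0.01 for the minor spliceosome and SMN lists.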

How the data were processed

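RNA-seq of 3 control and 3 IGF2BP3 KD libraries of OE-19 cells was used. Per the labels and the study's methods, the authors prepared poly(A) libraries with a directional kit, processed reads with fastp, used HISAT2 for alignment to hg38 and featureCounts for counts per gene. The deposited values are raw counts, without normalization. Versions, the annotation release and the strand setting are not given in the sources used here. Total counts were 53424071 to 69989087 per library, and 132 repeated rows were left out. Counts were tested with edgeR 4.0.16 (TMM, filterByExpr at 10 counts and a total of 15, quasi-likelihood test, Benjamini-Hochberg over 19778 genes, threshold 0.05), checked on simulated counts. CPM are TMM-scaled. Positions, 3′ UTRs and exon lengths come from GENCODE v44 on hg38. The members, the further lists and the words searched were chosen with earlier results of these data known. Every called member was named, except 1 PRPF gene that is not reported here. Values by library were given for up to 4 called members with the smallest p in each family, 2 where fewer than 2 were called, and for the 5 highest levels per kilobase. From each further list, up to 3 called genes with the smallest p were named. Genes that did not pass were also named for the exon junction complex and for the kinases and import factors of SR proteins. *SRSF8*, *SNRPB2*, *LSM8* and *SYF2* were given by library after their values were seen. The alternatives were DESeq2 1.42.0, RLE scaling, other low-count filters, coding genes only, a replicate block, pseudogene rows added, other thresholds and each library left out.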

Additional observations from a re-analysis of the deposited data

How the results depend on the processing

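The number of splicing factors called lower stayed between 31 and 44 under other scaling, low-count filters, coding genes only, a replicate block, pseudogene rows added, DESeq2 and each library left out, and was 30 at an adjusted p under 0.01. All 505 values of called genes under these alternatives kept their direction, and 475 were also called. The genes were chosen by their call and the fits reuse the same libraries, so these counts are no independent evidence. Of the 39 called genes, 30 were called in all 6 fits without 1 library, and DESeq2 called all 38 for which it gave an adjusted p. The effects are small: when a log2 fold change of 0.5 or more in size was also required, 3 genes remained lower and 0 higher, with 2 hnRNP genes and 1 LSM gene lower, 0 LSM genes higher, and 0 lower among SRSF, SNRP, SF3, U2AF and PRPF and 0 SRSF higher. Of these 3 genes, *HNRNPA1L2* rested on few reads with overlapping groups, and the others were *HNRNPR* and *LSM5*. *SNRPA1*, at −0.498, was just under 0.5 in size. At an adjusted p under 0.01, 1 gene was higher in all and 0 among SRSF, and U2AF had 1 and PRPF 3 lower. With DESeq2, PRPF had 8 lower. Without 1 library each, genes called higher numbered 1 to 2 (SRSF 0 to 1), the median log2 fold change ran from −0.15 to −0.12, and genes called lower numbered 3 to 7 for SF3, 1 to 2 for U2AF and 3 to 5 for PRPF. Beyond the fewer libraries and the stricter thresholds themselves, the cause was not tested. Libraries with the same replicate number did not deviate together (r = 0.005, −0.09 and 0.03 over 11547 genes), so the number was not taken as a pairing. With it as a replicate block, 39 genes were lower and 2 higher, and all 39 called genes were called.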
